A study of Mus musculus with 36 samples.

Results

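Gcsam, Cltrn and Ffar4 are 3 genes with a high signal in Sirpa-negative dendritic cells (Sirpa- DC) of the mouse thymus, measured on whole-genome expression arrays. They were chosen by that level itself, the log2 signal in Sirpa- DC set against the other sorted populations, so their level in Sirpa- DC is described here and not tested. They are 3 of 18193 genes that have a probe set annotated with their symbol alone, and each gene was read from its probe set with the highest mean over 36 arrays. Gcsam was read from 1420544_at, Cltrn from 1435064_a_at and Ffar4 from 1439489_at. Gcsam has a second probe set, 1442582_at, which is given beside the first.

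The 36 arrays held RNA from 6 populations sorted from the thymus of male wild-type C57BL/6J mice aged 1, 3 or 6 months, with 2 arrays per population and age and no treatment. Beside Sirpa- DC these were Sirpa-positive dendritic cells (Sirpa+ DC), fibroblasts, the thymic epithelium of the cortex (cTEC) and that of the medulla in 2 fractions (mTEClo and mTEChi). Each sample is labelled with 1 mouse, but the design text counts 2 mice for every age, so populations of one age may share mice and p-values may cover only the spread between those samples. Values are log2 signals, in which a difference of 1 is a 2-fold change, and array medians lay between 5.61 and 5.75. A level is called low below when it lies under 5.66, the median of all values.

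Conventional dendritic cells of the thymus fall into a lineage that carries XCR1 and lacks Sirpa, which presents antigens taken up from other cells, and a lineage that carries Sirpa. Gcsam encodes an adaptor protein named for its expression in germinal centre B cells, where it binds the kinase Syk and restrains cell movement through the GTPase RhoA. Cltrn encodes collectrin, a membrane protein that brings amino acid transporters to the surface of kidney cells and is cleaved by the protease Bace2. Ffar4, also called GPR120, encodes a G protein-coupled receptor for long-chain fatty acids that signals through Gq proteins and beta-arrestin 2.

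The DNA around the annotated starts of the 3 genes is shown because the genes share their highest population. Each window holds 250 bases before the start and 50 from it, on the plus strand of GRCm38.p6, from RefSeq. Capitals mark GAGGAAG, a core sequence bound by ETS factors of the PU.1 type, or its complement CTTCCTC.
Gcsam, chr16:45610190-45610489: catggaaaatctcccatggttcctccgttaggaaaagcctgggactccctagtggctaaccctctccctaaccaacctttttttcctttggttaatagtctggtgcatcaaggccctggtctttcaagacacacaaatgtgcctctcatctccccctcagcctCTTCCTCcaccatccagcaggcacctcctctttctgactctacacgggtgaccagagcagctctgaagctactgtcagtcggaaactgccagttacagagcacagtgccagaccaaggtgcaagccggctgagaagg
Cltrn, first start, chrX:164089937-164090236: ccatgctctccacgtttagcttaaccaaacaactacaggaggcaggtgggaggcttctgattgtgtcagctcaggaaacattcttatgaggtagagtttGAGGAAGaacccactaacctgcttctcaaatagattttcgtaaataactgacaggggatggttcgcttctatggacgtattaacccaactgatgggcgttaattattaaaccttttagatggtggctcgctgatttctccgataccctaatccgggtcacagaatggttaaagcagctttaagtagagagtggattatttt
Cltrn, second start, chrX:164091939-164092238: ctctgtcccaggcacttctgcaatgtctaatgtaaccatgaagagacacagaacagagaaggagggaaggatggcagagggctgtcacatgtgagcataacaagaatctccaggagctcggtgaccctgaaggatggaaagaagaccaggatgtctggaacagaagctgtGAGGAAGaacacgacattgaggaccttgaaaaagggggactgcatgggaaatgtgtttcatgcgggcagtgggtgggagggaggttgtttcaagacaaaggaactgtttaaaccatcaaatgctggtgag
Ffar4, chr19:38096829-38097128: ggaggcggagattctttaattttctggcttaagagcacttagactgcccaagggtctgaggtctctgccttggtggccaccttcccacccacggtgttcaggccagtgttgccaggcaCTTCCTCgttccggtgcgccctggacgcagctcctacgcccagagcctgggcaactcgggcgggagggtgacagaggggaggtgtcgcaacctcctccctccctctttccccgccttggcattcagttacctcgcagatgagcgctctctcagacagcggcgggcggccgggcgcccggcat

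All 3 genes matched the RefSeq table, Cltrn with both starts. The windows differed in base composition. GC content was 53.0% for Gcsam, 43.0% and 49.3% for Cltrn and 63.7% for Ffar4, against a median of 52.7% over 32851 windows. The Ffar4 window held 19 CpG dinucleotides, compared with 4 for Gcsam, 8 and 3 for Cltrn and a median of 7.

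The 7 letters GAGGAAG occurred once in each of the 4 windows and in 13.6% of all windows. In the order printed, the leftmost base of the match lay 87, 151, 80 and 132 bases before the start. With a T added at the 3′ end the pattern occurred in the Ffar4 window alone, and in 3.20% of all windows. The E-box CANNTG occurred in all 4 windows and in 72.3% of all windows. No window held GAAANNGAAA, the paired site of interferon regulatory factors (3.44% of all windows), GGAANNGAAA, the joint site of an ETS factor and such a factor (2.72%), or TGANTCA, the AP-1 site that BATF proteins also bind (7.81%). All 6 patterns were searched on both strands, and the 7-letter form and the E-box were added after the windows had been read. These matches describe letters and were not tested.

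Gcsam was high in Sirpa- DC and low nearly everywhere else. The 6 Sirpa- DC arrays read 10.61 and 10.41 at 1 month, 10.49 and 10.56 at 3 months, and 10.40 and 10.43 at 6 months, a mean of 10.49 ± 0.08 (SD, n = 6). Sirpa+ DC averaged 5.24 ± 0.72, mTEChi 4.17 ± 0.27, fibroblasts 3.67 ± 0.25, mTEClo 3.49 ± 0.07 and cTEC 3.38 ± 0.26 (n = 6 each). No array outside Sirpa- DC came near: the highest, a Sirpa+ DC array of 1 month, stood 4.29 below the lowest Sirpa- DC array. Of the 30 other arrays, 28 were low. Below Sirpa- DC, each population's arrays overlapped those of the next in order. The mean of Sirpa- DC lay 6.50 above that of the other 5 populations, a 90.4-fold difference and the largest of all 14495 genes tested. At thresholds of 0.05 for the adjusted p and 2-fold for the size, this comparison called 19.2% of these genes in either direction, and nothing is read from the members' place in it, since it chose them. The second probe set gave the same highest population, with 8.44 ± 0.40 in Sirpa- DC, 4.15 ± 0.31 in Sirpa+ DC and 3.39 to 3.63 elsewhere.

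Cltrn had a mean above the median of all values in Sirpa- DC and in mTEChi. The Sirpa- DC arrays read 8.74 and 9.10 at 1 month, 8.93 and 8.52 at 3 months, and 9.05 and 9.22 at 6 months, a mean of 8.93 ± 0.26 (SD, n = 6). The mTEChi arrays read 5.83 and 6.48, 6.14 and 6.20, and 6.72 and 5.48 at the same ages, a mean of 6.14 ± 0.44. Sirpa+ DC averaged 4.12 ± 0.30, mTEClo 3.36 ± 0.15, fibroblasts 3.32 ± 0.10 and cTEC 3.26 ± 0.11. Arrays of Sirpa- DC, mTEChi, Sirpa+ DC and the 3 lowest populations did not overlap in that order, while mTEClo, fibroblasts and cTEC overlapped one another. The lowest Sirpa- DC array stood 1.80 above the highest other array, which was from mTEChi at 6 months, and 25 of the 30 other arrays were low. Sirpa- DC lay 4.89 above the mean of the other 5, a 29.6-fold difference and the 8th largest of the genes tested.

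Ffar4 was a gene of both dendritic populations. The Sirpa- DC arrays read 10.07 and 10.15 at 1 month, 10.07 and 9.93 at 3 months, and 10.28 and 10.15 at 6 months, a mean of 10.11 ± 0.12 (SD, n = 6). The Sirpa+ DC arrays read 8.55 and 8.83, 9.09 and 7.51, and 9.08 and 8.86 at these ages, a mean of 8.65 ± 0.60. Epithelial cells and fibroblasts were lower, at 4.90 ± 0.64 in mTEChi, 4.07 ± 0.19 in mTEClo, 3.95 ± 0.18 in cTEC and 3.79 ± 0.15 in fibroblasts. The DC populations overlapped neither each other nor the rest, and the other 4 overlapped their neighbours in the order. The lowest Sirpa- DC array stood 0.84 above the highest Sirpa+ DC array, the smallest such distance of the 3 genes, and 23 of the 30 other arrays were low. Sirpa- DC lay 5.04 above the mean of the other 5, a 32.8-fold difference and the 4th largest.

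**Figure D1:**
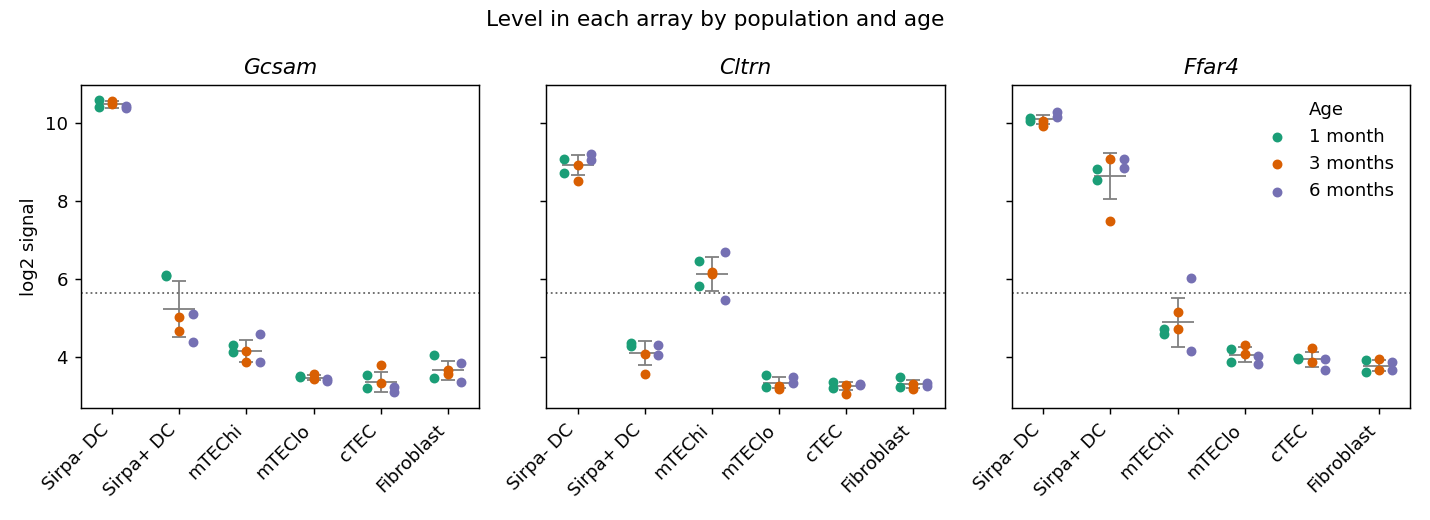
Log2 signal of Gcsam, Cltrn and Ffar4 (panels) in each of 36 arrays, by population (x axis) and age (colour); grey marks give the mean ± SD of 6 arrays and the dotted line the median of all values, 5.66. Sirpa- DC is highest in each panel, followed by Sirpa+ DC for Gcsam and Ffar4 and by mTEChi for Cltrn.

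The label of the population was checked against its markers. Xcr1, the chemokine receptor that marks the Sirpa-negative lineage, averaged 9.20 in Sirpa- DC, 4.62 in Sirpa+ DC and 3.70 to 3.88 elsewhere. All 9 listed cDC1 markers tested were higher in Sirpa- DC than in the mean of the other 5, where 6.2% of all genes were. Most of the other 5 are not dendritic, so this count does not separate the DC populations. The cDC1 list mean was 10.91 in Sirpa- DC (10.71 to 11.18), 9.22 in Sirpa+ DC (8.93 to 9.31) and 6.71 to 7.33 elsewhere. Batf3 arrays of the DC populations overlapped, at 10.33 to 10.82 and 9.90 to 10.52. Sirpa itself had a mean of 7.03 ± 0.91 in the Sirpa- and 10.21 ± 0.13 in the Sirpa+ population. Macrophage markers varied between Sirpa- DC arrays, with a list mean over 7 genes of 7.27 to 9.39 and C1qa, a complement subunit, at 6.15 to 9.23. Gcsam read 10.40 to 10.61 in these arrays by its first probe set and 8.003 to 8.995 by its second. The part of macrophages in these levels was not tested. Markers of B cells, the cells Gcsam is named for, had a list mean of 5.31 to 6.21 in Sirpa- DC arrays and 5.38 to 6.03 in cTEC arrays. Pax5, the B cell master regulator, averaged 5.47 in Sirpa- DC, which is low. Of 6 germinal centre genes tested, 2 were higher in Sirpa- DC than in the mean of the other 5 (Gpr183 by 1.66 ± 0.19 and Bcl6 by 1.18 ± 0.11) and 2 lower (Rgs13 at -3.25 ± 0.24 and Fas at -1.07 ± 0.11). Among all genes tested, 6.2% were called higher and 13% lower in this comparison. The median of the germinal centre genes was -0.10 against -0.03 for all genes. In sorted cell pools, fewer cells of a type and less RNA per cell cannot be told apart. Fibroblast arrays also held thymocyte transcripts, with a list mean of 8.70 to 11.09 against 5.27 to 8.54 in the other populations.

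Differences among the other 5 populations did not enter the choice of the genes and were tested with limma in 4 comparisons. The same thresholds of 0.05 and 2-fold decided a call. Ffar4 showed the largest difference in Sirpa+ DC, at 8.65 against 4.18 in the mean of mTEChi, mTEClo, cTEC and fibroblasts, a difference of 4.48 ± 0.18 (SE) or 22.3-fold (limma, adjusted p = 6.25e-17). Gcsam was also higher in Sirpa+ DC, by 1.56 ± 0.11 or 2.95-fold (limma, adjusted p = 6.22e-12), although 4 of its 6 Sirpa+ DC arrays were low. The second Gcsam probe set gave 0.67 here, under 2-fold. Cltrn was not called, with 4.12 against 4.02, a difference of 0.10 and a 95% interval of -0.16 to 0.36 (limma, adjusted p = 0.493). Thus 2 of the 3 genes were called higher, where 8.04% of all genes tested were called higher and 21.7% in either direction.

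Within the epithelium only Cltrn was called at these thresholds. It was 2.78 ± 0.16 higher in mTEChi than in mTEClo, a 6.89-fold difference (limma, adjusted p = 1.46e-13). That comparison called 11.8% of genes higher and 19.6% in either direction. Every mTEChi array lay above every mTEClo array. Cltrn was lower in cTEC than in the mean of mTEClo and mTEChi by -1.48 ± 0.14 (limma, adjusted p = 1.54e-09). There 8.24% of genes were called lower and 13.6% in either direction. The cTEC mean of 3.26 was close to 3.36 in mTEClo, with overlapping arrays, so this difference came from mTEChi at 6.14. In mTEChi, Xcr1 was close to its mTEClo level, with a difference of 0.05 ± 0.14 (limma, adjusted p = 0.805). The cDC1 list as a whole averaged 7.33 in mTEChi and 6.71 in mTEClo, and 3 of its 9 genes tested were called higher and 1 lower, where 11.8% of all genes were called higher and 7.81% lower. Markers of other cells also differed in this comparison, and the arrays of mTEChi and mTEClo did not overlap in the list means that follow. The macrophage list averaged 7.66 in mTEChi (7.40 to 7.93) and 6.45 in mTEClo (6.19 to 6.82), and 5 of its 7 genes were called higher, among them Adgre1, a macrophage surface receptor, by 2.08 ± 0.18 and C1qa by 1.64 ± 0.34. The list of activated DC markers averaged 8.83 (8.57 to 9.18) and 7.34 (7.01 to 7.54), with 5 of 9 genes called higher, led by the chemokine Ccl22 at 3.60 ± 0.25. The B cell list averaged 6.69 (6.57 to 6.81) and 5.82 (5.61 to 6.02), with 4 of 9 called higher, while Pax5 differed by 0.10 ± 0.11. The part of these cells in the Cltrn difference was not tested.

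In cTEC, Gcsam differed from the mean of mTEClo and mTEChi by -0.45 ± 0.12 (limma, adjusted p = 0.00403). Ffar4 differed there by -0.53 ± 0.20 (limma, adjusted p = 0.0283), and both were under 2-fold. Gcsam and Ffar4 also differed between mTEChi and mTEClo by less than 2-fold, at 0.68 ± 0.14 (limma, adjusted p = 0.000258) and 0.83 ± 0.23 (limma, adjusted p = 0.00342). The Ffar4 value became 1.14, and was called, without 1 array of mTEChi at 6 months. That array, replicate 2, read 5.48 for Cltrn and 4.17 for Ffar4, the lowest mTEChi values of both. Replicate 1 of the same group was the highest mTEChi array for all 3 genes, at 4.61 for Gcsam, 6.72 for Cltrn and 6.03 for Ffar4. The cDC1 list mean was 7.81 in replicate 1 and 7.08 in replicate 2, and Xcr1 4.29 and 3.89; the part of dendritic transcripts in this spread was not tested.

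Between fibroblasts and the mean of the 3 epithelial populations none of the 3 genes was called, in a comparison that called 22.3% of genes in either direction. Cltrn differed by -0.94 ± 0.13 (limma, adjusted p = 6.24e-07) and Ffar4 by -0.51 ± 0.19 (limma, adjusted p = 0.0191), both lower in fibroblasts but under 2-fold. For Cltrn, fibroblasts at 3.32 overlapped mTEClo at 3.36 and cTEC at 3.26, so its difference came from mTEChi. Without replicate 2 of mTEChi at 6 months the Cltrn difference was -1.01 and was called. Gcsam differed by -0.01, with a 95% interval of -0.25 to 0.23.

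**Figure D2:**
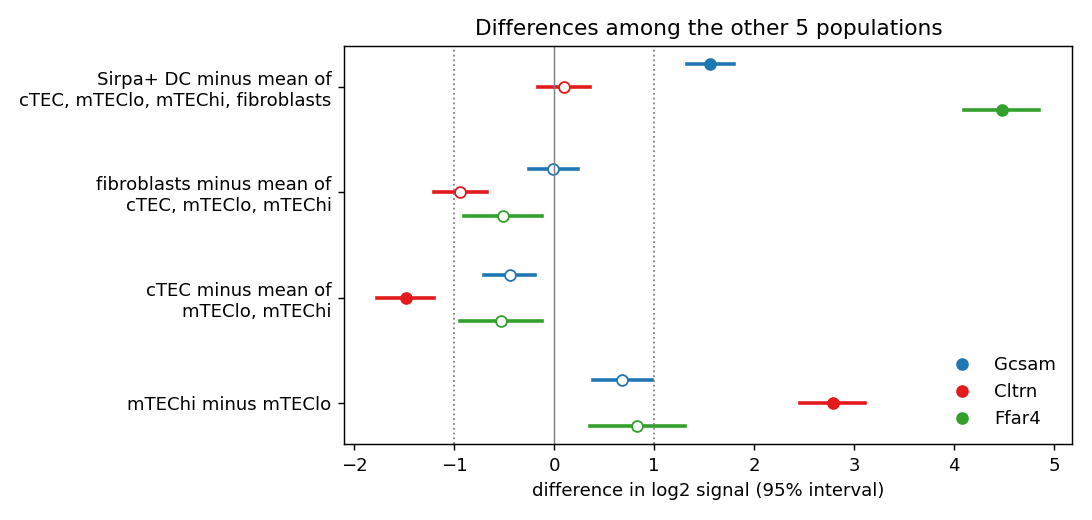
Differences in log2 signal (x axis) of Gcsam, Cltrn and Ffar4 in 4 comparisons among the populations other than Sirpa- DC, with 95% intervals from limma; filled points passed an adjusted p of 0.05 and 2-fold, and dotted lines mark 2-fold. Gcsam (1.56) and Ffar4 (4.48) were higher in Sirpa+ DC. Cltrn was higher in mTEChi than in mTEClo (2.78) and lower in cTEC than in their mean (-1.48), which mTEChi raised.

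The level of the 3 genes in Sirpa- DC was not called as changing with age in any of 9 comparisons (3 genes, 3 pairs of ages) by limma, and none reached an unadjusted p of 0.05. All genes tested were called at 0.0345% from 1 to 3 months, 0.904% from 1 to 6 months and 0.29% from 3 to 6 months. From 1 to 6 months Gcsam went from 10.51 to 10.42, a difference of -0.09 with a 95% interval of -0.60 to 0.42. Cltrn went from 8.92 to 9.14, a difference of 0.22 (-0.35 to 0.78), and Ffar4 from 10.11 to 10.22, a difference of 0.11 (-0.71 to 0.93). The intervals allow changes of up to 1.04 over the 9 comparisons, or about 2-fold. Xcr1 rose over the same interval, by 1.05 ± 0.24 (limma, adjusted p = 0.0332), with arrays at 8.80 and 8.81 at 1 month and 9.89 and 9.83 at 6 months. The mean of the macrophage list went from 7.94 to 9.34, but none of its genes was called (limma, lowest adjusted p = 0.0977, for Mertk). The arrays of 1 month lay apart, with C1qa at 8.22 and 6.49, and those of 3 months further, at 6.15 and 9.22. Both arrays of 6 months read 9.23.

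The second Gcsam probe set did not give the same account of age. Its Sirpa- DC arrays read 8.003 and 8.23 at 1 month, 8.23 and 8.29 at 3 months, and 8.89 and 8.995 at 6 months, and the values of 6 months lay above all others. With this probe set, a choice made after seeing the data, Gcsam rose from 1 to 6 months by 0.82 (limma, adjusted p = 0.0284). The mean of both probe sets gave 0.37 (limma, adjusted p = 0.380). A change of Gcsam with age in Sirpa- DC therefore depended on the probe set.

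Outside Sirpa- DC, 2 of 45 age comparisons of the members were called, both of Gcsam in Sirpa+ DC. Gcsam was low in every array of mTEChi, mTEClo, cTEC and fibroblasts, where a fall with age could hardly show. The Sirpa+ DC arrays read 6.11 and 6.08 at 1 month, 4.69 and 5.04 at 3 months, and 4.39 and 5.11 at 6 months. Both arrays of 1 month lay above the 4 older ones, which were low. Gcsam fell by 1.23 ± 0.25 from 1 to 3 months (limma, adjusted p = 0.0227), where 0.331% of genes tested changed in either direction, and by 1.35 ± 0.25 from 1 to 6 months (limma, adjusted p = 0.00373), where 2.06% did. From 3 to 6 months, where 1.23% changed, Gcsam differed by -0.12 (limma, adjusted p = 0.892). From 1 to 3 and 1 to 6 months the second probe set, low in all Sirpa+ DC arrays, gave -0.53 (limma, adjusted p = 0.335) and -0.16 (limma, adjusted p = 0.708). The mean of both probe sets was called in both, at -0.88 (limma, adjusted p = 0.0371) and -0.76 (limma, adjusted p = 0.0163). The calls of the first probe set depended on single arrays. Leaving out either array of 1 month or replicate 1 of 3 months ended the first call (limma, adjusted p = 0.297, 0.135 and 0.261), and leaving out replicate 1 of 1 month or of 6 months ended the second (limma, adjusted p = 0.0674 and 0.201). A fit of only the groups compared also ended the first (limma, adjusted p = 0.0501).

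List means of other cells also differed between ages in the same Sirpa+ DC arrays, and these means were not tested. The thymocyte list mean was 7.73 at 1 month, 7.19 at 3 months and 6.90 at 6 months, and that of plasmacytoid DC markers 8.39, 7.57 and 7.88. None of the listed plasmacytoid DC genes was called in an age comparison of Sirpa+ DC. Xcr1 differed by -0.18 ± 0.24 from 1 to 6 months (limma, adjusted p = 0.764). The part of other cells in the fall of Gcsam was not tested. The change of Gcsam from 1 to 6 months was 1.26 ± 0.35 more positive in Sirpa- DC than in Sirpa+ DC, which did not pass the threshold (limma, adjusted p = 0.402), in a comparison that called 0.0138% of genes. Against the mean of the other 5 populations, in a comparison that called 0.186%, it differed by 0.26 (limma, adjusted p = 0.972).

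**Figure D3:**
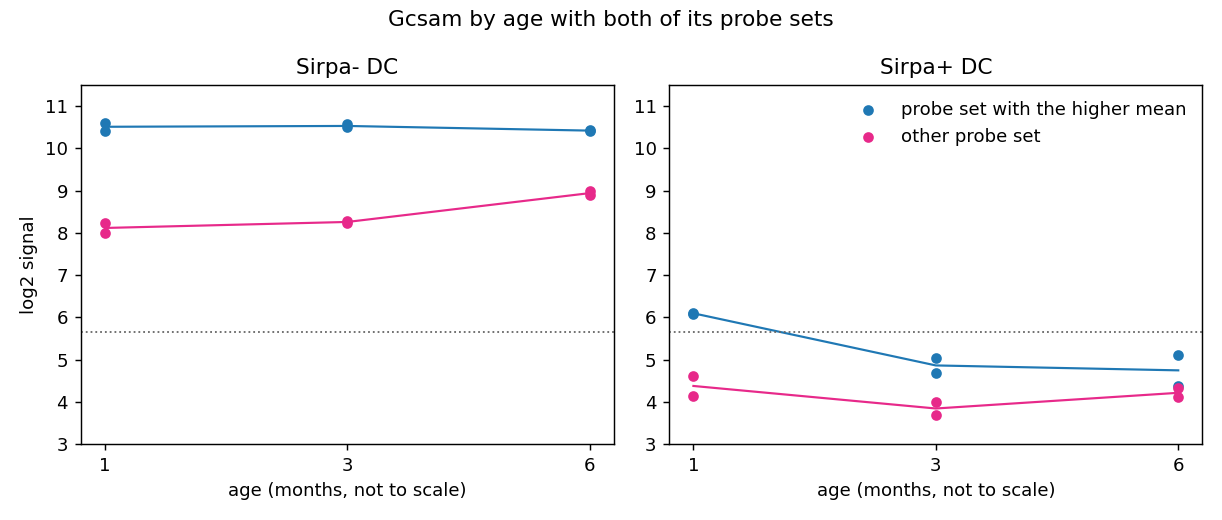
Log2 signal of Gcsam (y axis) at 1, 3 and 6 months in Sirpa- DC (left) and Sirpa+ DC (right), with 1 point per array, lines through the means of 2 arrays and the dotted line at 5.66. The probe set with the higher mean is level in Sirpa- DC and falls after 1 month in Sirpa+ DC, whereas the other probe set is higher at 6 months in Sirpa- DC and stays below 5.66 in Sirpa+ DC.

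Cltrn and Ffar4 passed the test in none of the 30 age comparisons outside Sirpa- DC by limma, and none had an unadjusted p under 0.05. The largest of these differences in size was that of Ffar4 in Sirpa+ DC between 3 and 6 months, 0.67 with a 95% interval of -0.15 to 1.50. Without replicate 2 of mTEChi at 6 months, Ffar4 rose by 1.37 from 1 to 6 months in mTEChi (limma, adjusted p = 0.0335). Cltrn was low in every array of Sirpa+ DC, mTEClo, cTEC and fibroblasts, and Ffar4 in every array of mTEClo, cTEC and fibroblasts. A fall with age could hardly show there, and the lack of calls is not read as a steady level. The background of calls differed widely between the age comparisons outside Sirpa- DC. From 1 to 3, 1 to 6 and 3 to 6 months, 5.4%, 6.45% and 3.84% of all genes tested changed in cTEC, 1.77%, 6.42% and 2.39% in mTEClo, and 20.4%, 36.2% and 16.2% in fibroblasts. In mTEChi they were 0%, 9.51% and 7.87%, and 385 genes had an unadjusted p under 0.05 by limma from 1 to 3 months.

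The genes listed for the signalling of Gcsam in B cells were split. Of 12 listed genes 11 were tested, and 4 were higher and 2 lower in Sirpa- DC than in the mean of the other 5 populations, with a median of 0.82 against -0.03 for all genes, in the comparison that called 6.2% of all genes higher and 13% lower. Inpp5d, a lipid phosphatase of signalling in blood cells, was higher by 2.70 ± 0.11, Btk, a kinase downstream of Syk, by 2.66 ± 0.12, Plcg2, a phospholipase, by 2.22 ± 0.11, and Grb2, an adaptor, by 1.40 ± 0.12. The adaptor Blnk was lower, at -1.94 ± 0.26, as was Arhgef12, an activator of RhoA, at -3.14 ± 0.18. Syk, the kinase that Gcsam binds, differed by 0.82 ± 0.11, under 2-fold. The same list had 6 genes higher and 1 lower in Sirpa+ DC than in the 4 non-dendritic populations, where 8.04% of all genes were higher and 13.7% lower, with Syk higher by 2.14 ± 0.11.

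The listed partners of collectrin were not high beside it. Of 17 listed genes, 14 had a probe set and 10 were tested, and all 10 had values below the mean of the other populations in Sirpa- DC, 3 of them called lower by limma, with a median of -0.60 against -0.03 for all genes, of which 13% were called lower. Bace2, the protease that cleaves collectrin, differed by -1.39 ± 0.15, Bace1, a related protease, by -3.26 ± 0.19, and the amino acid transporter Slc6a20a by -1.12 ± 0.21. In mTEChi, the other population with Cltrn signal, Slc6a20a was higher than in mTEClo by 3.37 ± 0.27 and Slc7a9, another amino acid transporter, by 1.50 ± 0.13, while Bace1 differed by -2.86 ± 0.24.

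Genes of fatty acid sensing and handling moved both ways. Of 19 listed genes, 17 had a probe set and 16 were tested. In Sirpa- DC 5 were higher and 3 lower than in the mean of the other 5, against 6.2% and 13% of all genes, with a median of -0.05 against -0.03. Cd36, a fatty acid transporter, was higher by 4.85 ± 0.13, Gna15, a Gq-class protein of blood cells, by 2.08 ± 0.11, and Arrb2, beta-arrestin 2, by 1.23 ± 0.10. Gna14, another protein of that class, was lower, at -2.09 ± 0.13. In Sirpa+ DC, 7 were higher and 2 lower than in the 4 non-dendritic populations, against 8.04% and 13.7% of all genes, among them Ffar2, a receptor for short-chain fatty acids, by 4.25 ± 0.13, Hcar2, the niacin receptor, by 2.61 ± 0.16, and Arrb2 by 2.08 ± 0.10. Cd36 fell in Sirpa+ DC from 1 to 6 months by 1.25 ± 0.29 (limma, adjusted p = 0.0193), and Ffar2 rose there from 1 to 3 months by 2.03 ± 0.28 (limma, adjusted p = 0.000326).

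Regulators of dendritic cell fate were mostly high in both dendritic populations. Of 12 listed transcription factors, 7 were higher in Sirpa- DC than in the mean of the other 5, where 6.2% of all genes were, with a median of 1.14 against -0.03 for all genes, and the lowest, Irf4, differed by -0.52 ± 0.20, under 2-fold. Batf3, required for the XCR1 lineage, was higher by 4.02 ± 0.10, Spi1, which encodes PU.1, by 2.91 ± 0.10, Zbtb46 by 2.605 ± 0.150 and Irf8 by 2.18 ± 0.14. In Sirpa+ DC 9 of the 12 were higher than in the 4 non-dendritic populations, where 8.04% of all genes were, led by Batf3 at 4.58 ± 0.10, Spi1 at 3.96 ± 0.10, Zeb2 at 3.64 ± 0.25 and Zbtb46 at 2.46 ± 0.15.

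The genes most like each member over the 36 arrays differed between the 3. Likeness is Pearson's correlation of log2 signals, which here reflects mainly the 6 populations the arrays share, and it is a description. For Gcsam they were Xcr1 (r = 0.983), Clnk, an adaptor of immune receptors (0.977), Notch4 (0.977), Cd36 (0.969) and Gpr33 (0.968). For Cltrn they were Cd207, which encodes langerin (0.970), Ccnb1ip1 (0.931), Gm3336 (0.918), Gfod1 (0.907) and St3gal5, a ganglioside synthase (0.902). For Ffar4 they were Il12b, a subunit of interleukin 12 (0.985), Septin3 (0.985), Flt3, the receptor for the growth factor of dendritic cells (0.985), Fgd2 (0.979) and Sh3tc1 (0.979).

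Of the 5 genes nearest Cltrn, all but St3gal5 had mTEChi as their next highest population, as Cltrn did. Cd207 averaged 9.33 in Sirpa- DC, 6.55 in mTEChi, 6.06 in Sirpa+ DC and 4.67 to 4.89 in the others. Il12b, like Ffar4, was high in both DC populations, at 9.96 and 8.53, against 3.81 to 5.61 elsewhere. Among the members, r was 0.889 for Gcsam and Cltrn, 0.871 for Gcsam and Ffar4, and 0.729 for Cltrn and Ffar4. By rank correlation the order changed: Xcr1 was 96th for Gcsam, with a Spearman rho of 0.845, while Cd207 was 4th for Cltrn, at 0.863.

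**Figure D4:**
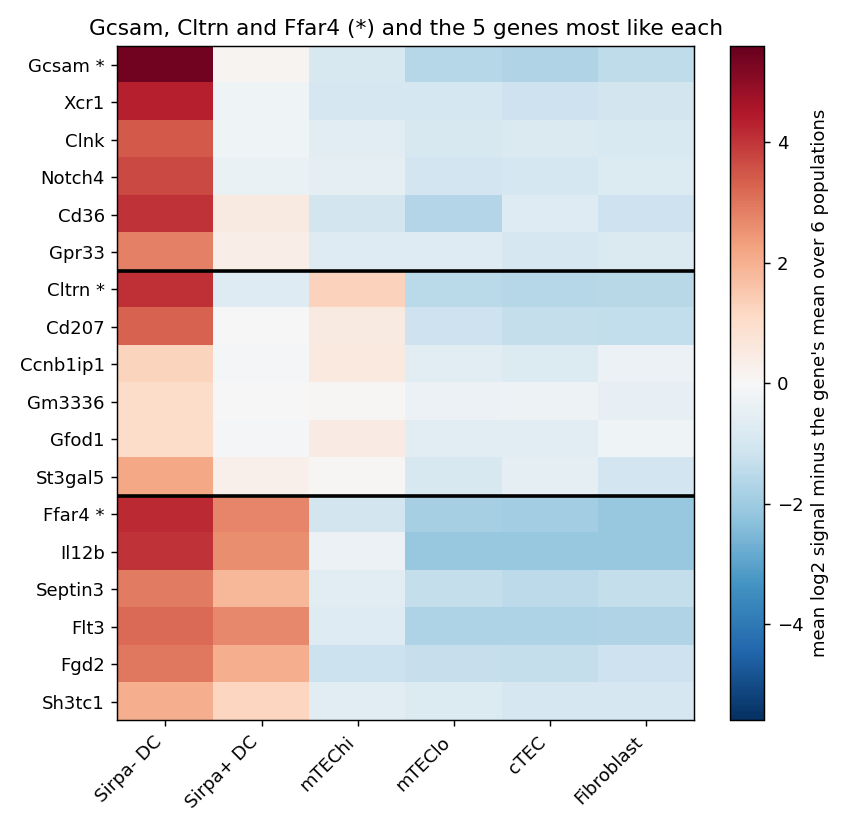
Mean log2 signal of 6 arrays minus each gene's mean over the 6 populations (colour), for Gcsam, Cltrn and Ffar4 (starred) and the 5 genes most like each (rows), by population (columns). All rows are highest in Sirpa- DC; the Ffar4 block is also high in Sirpa+ DC, and Cltrn, Cd207, Ccnb1ip1, Gm3336 and Gfod1 have mTEChi as the next highest.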

How the data were processed

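RNA of 36 sorted samples was hybridised to Affymetrix mouse arrays. The authors deposited 1 log2 signal for each probe set and array, with the log base read here from the range. Gene Expression Commons did the normalization per the design text, while GCRMA, without a version, is named in the submitters' processing notes. The values were used with no further scaling. Of 45101 probe sets, 64 were controls, 932 had several symbols and 9160 none; these were left out. The probe set with the highest mean stood for each of 18193 genes, and 14495 genes that exceeded the pooled median (5.66) in 2 or more arrays were tested, all 3 members among them.

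A model with 1 mean for each of 18 groups was fitted with limma 3.58.1 in R 4.3.3, moderated with an intensity trend, and tested on simulated data. P-values are two-sided and were adjusted by Benjamini-Hochberg across all genes in each comparison. The tested comparisons were 18 of ages within populations, 4 among the populations other than Sirpa- DC and 2 of age changes between populations. Named genes were the members, the 5 genes most like each by Pearson correlation, the genes that define a list and up to 4 called genes per list. Members and lists were chosen with earlier results of these data known. The model had no replicate block.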

Additional observations from a re-analysis of the deposited data

Results flagged for a closer look

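Ffar4 in Sirpa+ DC had 1 array far from the other 5 of that population. Replicate 2 of 3 months read 7.51, and the next lowest array 8.55, a distance of 0.659 of the whole range against a critical value of 0.625 for 6 arrays (Dixon). This was 1 of 18 gene and population pairs examined, and chance marks about 1 in 20. The same array was also the lowest of Sirpa+ DC for Cltrn, at 3.56, but not for Gcsam, at 5.04.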

How the results depend on the processing

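The alternatives were other scalings, filters, variance models, array weights, a covariate for RNA quality, a replicate block and each array left out in turn, where the lone array of a group is taken to vary like the others. The main model did not pair samples by replicate number. Residuals of arrays of one age and number correlated above 0.1 in 17 of 45 pairs of populations (-0.07 to 0.42, median 0.09). Most of these correlations were positive, and some arrays, such as both DC populations at 3 months (0.42), deviated together. Whether arrays of one age and number share mice was not tested. The replicate block moved the number of all genes called from 1 to 6 months from 131 to 219 in Sirpa- DC and from 299 to 443 in Sirpa+ DC. With the replicate block the calls of the members stayed on the same side, and the fall of Gcsam in Sirpa+ DC from 1 to 6 months was -1.35 (adjusted p = 0.00369). The other Gcsam probe set, added after seeing the data for the tests, gave 0.82 (6 minus 1 months) and 0.68 (6 minus 3) in Sirpa- DC, -0.53 (3 minus 1), -0.16 (6 minus 1) and 0.37 (6 minus 3) in Sirpa+ DC, 0.67 for Sirpa+ DC against non-dendritic cells and 4.83 for Sirpa- DC against the rest. The mean of both gave 0.37 (6 minus 1) and 0.29 (6 minus 3) in Sirpa- DC, and 5.66 for Sirpa- DC against the rest. In Sirpa+ DC this mean gave -0.88 (3 minus 1) and -0.76 (6 minus 1), both still called, and 0.13 (6 minus 3). Quantile normalization turned the sign of differences near 0: Gcsam 6 minus 3 months in Sirpa+ DC (0.039), Gcsam between fibroblasts and epithelium (0.076) and the Ffar4 age change in Sirpa- DC against the rest (-0.11; -0.037 with the RNA quality covariate). Fitting only the groups compared kept -1.23 for Gcsam in Sirpa+ DC from 1 to 3 months but not its call. Leaving out arrays in turn gave, for Gcsam, -1.41 to -1.06 (3 minus 1), -1.71 to -0.99 (6 minus 1) and -0.48 to 0.25 (6 minus 3) in Sirpa+ DC, -0.079 to 0.12 (3 minus 1) and -0.19 to 0.0072 (6 minus 1) in Sirpa- DC, and -0.11 to 0.091 between fibroblasts and epithelium. For Cltrn it gave -0.40 to 0.016 in Sirpa- DC (3 minus 1), -0.27 to 0.0013 in Sirpa+ DC (6 minus 1) and -1.01 to -0.87 between fibroblasts and epithelium. For Ffar4 it gave -1.18 to 0.40 (3 minus 1) and -0.12 to 1.46 (6 minus 3) in Sirpa+ DC, 0.52 to 1.14 between mTEChi and mTEClo, and -0.17 to 0.21 for the age change against the rest. The number of all genes called moved more: from 1 to 6 months it was 131 in Sirpa- DC, 71 to 1230 over the settings and 16 to 75 with 1 of the arrays compared left out, and 299 in Sirpa+ DC, 248 to 1267 and 23 to 164. The cause of these shifts was not tested. With 2 arrays per group, changes under about 2-fold could be missed.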
